A study of Drosophila melanogaster with 1908 samples.

Results

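PPO-positive nuclei are embryonic nuclei of Drosophila melanogaster that carried at least 2 unique molecular identifiers (UMIs, the tags that count single RNA molecules) of PPO1 plus PPO2, and whose inferred age was 8 h or more. They were chosen by these counts, as candidates for crystal cells, and they numbered 5211 of 277928 nuclei of 8 to 20 h and of 547805 nuclei in all. They were compared with 265916 nuclei of the same ages that held no UMI of either gene, called PPO-free nuclei here. A further 6801 nuclei had exactly 1 PPO UMI and stood just outside the rule, while 3089 members (59.3%) had exactly 2 and stood just inside it.

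Crystal cells are one of the blood cell types of the fly. They form in the head mesoderm beside the macrophage-like plasmatocytes, under the RUNX transcription factor Lozenge (lz), and they store prophenoloxidases, copper enzymes that are activated at wounds to oxidise phenols and deposit melanin. PPO1 and PPO2 encode the prophenoloxidases of crystal cells, and PPO3 encodes a related enzyme that larvae make in lamellocytes.

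Wild-type (Canton S) embryos, raised at 25°C without any treatment, were collected in 11 overlapping windows from 0 to 20 h after laying, and nuclei of pooled whole embryos were profiled by sci-RNA-seq3, which labels RNA within fixed nuclei over several rounds of indexing. The 7 experiments each combined several windows, and the age of each nucleus was inferred by the authors with a neural network trained on the windows. All groups therefore share genotype and rearing. Experiment 10 held 3871 members, experiment 1 held 1149, experiment 3 held 190 and experiment 2 held 1, and experiments 4, 11 and 12 held none, which allows shares of up to 2.10%, 1.80% and 2.703% of their few nuclei of this age. Tests therefore rest on experiments 1, 3 and 10. Members had a median depth of 0.422, 0.544 and 0.672 kUMI (1 kUMI is 1000 UMIs) in experiments 1, 3 and 10, against 0.344, 0.359 and 0.371 kUMI for PPO-free nuclei. No source states that the 3 experiments came from separate embryo collections, so p-values do not reach beyond these experiments. The tests share their estimate of spread over genes, so an SE or p-value can be small for a gene whose 3 experiments differ widely.

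Experiment 10 stood apart from the other experiments before any comparison. In it 4.14% of nuclei met the rule (95% exact binomial interval 4.01 to 4.27, 3871 of 93518), against 0.762% (0.719 to 0.807, 1149 of 150756) in experiment 1 and 0.588% (0.508 to 0.678, 190 of 32297) in experiment 3. It also held 50 members from windows that began before 4 h, whose inferred age goes against their window: 21 of 920 nuclei of 8 h or more from the 0 to 2 h window (2.28%) and 28 of 755 from the 1 to 3 h window (3.71%) met the rule. Such intervals cover counting error only. Of the members, 7 carried a barcode that also occurs in another experiment, among 920 such nuclei in the series.

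The shares could not be read as shares of crystal cells. Neuron-marker nuclei, which had at least 3 UMIs over elav, nSyb, brp, Syt1 and para and should lack prophenoloxidase, met the rule in 1.71%, 1.16% and 9.08% of 10883, 4235 and 12164 cases in experiments 1, 3 and 10, with medians of 0.422, 0.451 and 0.787 kUMI. These shares exceed those of all nuclei, whose medians were 0.345, 0.36 and 0.381 kUMI. With each nucleus thinned to 250 UMIs, no nucleus being left out, the rule was met by 0.401%, 0.260% and 1.30% of all nuclei and by 0.276%, 0.283% and 0.797% of neuron-marker nuclei. Plasmatocyte-marker nuclei gave 1.19%, 0.888% and 1.40% after the same thinning. In experiment 10 the marker classes ran between 6.02% (somatic muscle) and 14.2% (germ cell) before thinning, and PPO1 supplied 32.2% of the PPO UMIs in the midgut class and 36.9% to 40.97% in the others. Under 4 h, before blood cells differentiate, 28 of 151839 nuclei (0.0184%) had 2 or more PPO UMIs.

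**Figure D1:**
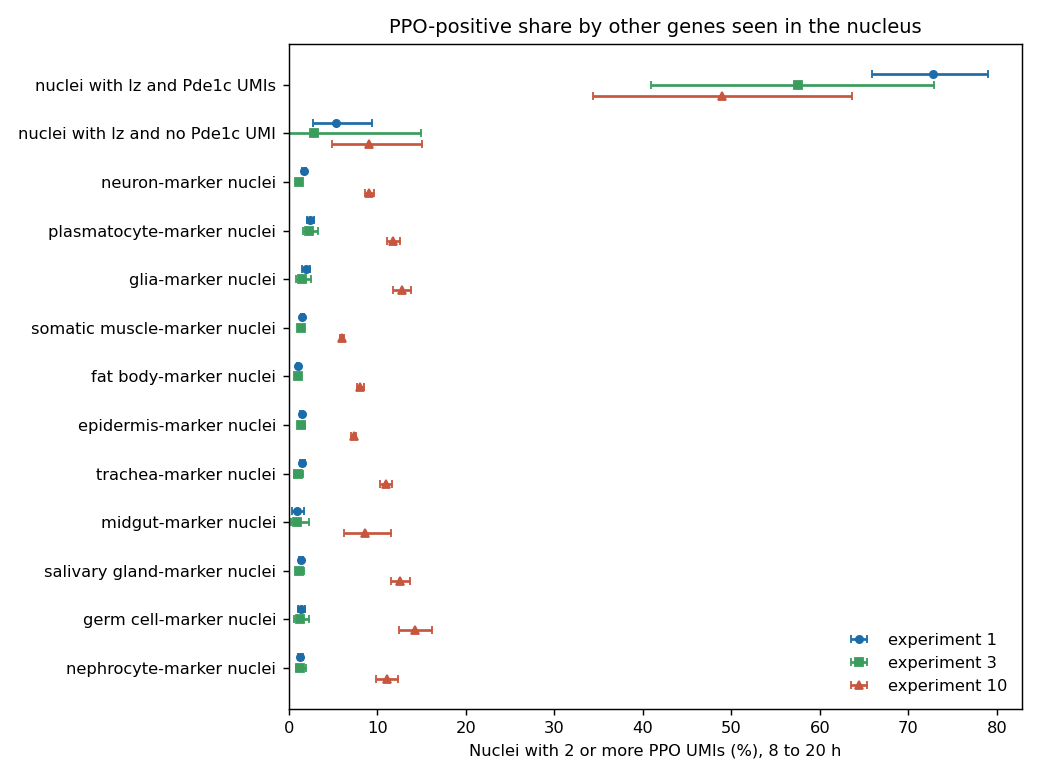
Percent of nuclei of 8 to 20 h with 2 or more PPO UMIs (horizontal axis) among nuclei grouped by other genes seen in them (rows), by experiment. Points are shares and bars are 95% exact binomial intervals. Nuclei with both lz and Pde1c stand at 48.98% to 72.8%, and every marker class lies under 3% in experiments 1 and 3 and between 6.02% and 14.2% in experiment 10.

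Depth moved with the shares. In the shallowest and the deepest 20% of nuclei the share that met the rule was 0.461% and 1.56% in experiment 1, 0.294% and 1.44% in experiment 3, and 1.82% and 9.90% in experiment 10. Age bins of 2 h gave 0.640% to 5.09% in experiment 1, with the top value resting on 23 nuclei of 18 to 20 h, and 2.18% to 8.16% in experiment 10. In experiment 3 the bins to 18 h gave 0.451% to 0.736%, and 0 of 52 nuclei of 18 to 20 h met the rule, which allows a share of up to 5.77%. After thinning, the bins of experiment 10 ran between 0.706% and 1.62% and those of experiment 1 between 0.288% and 0.885%. The part of depth and of free RNA in these shares was not tested.

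**Figure D2:**
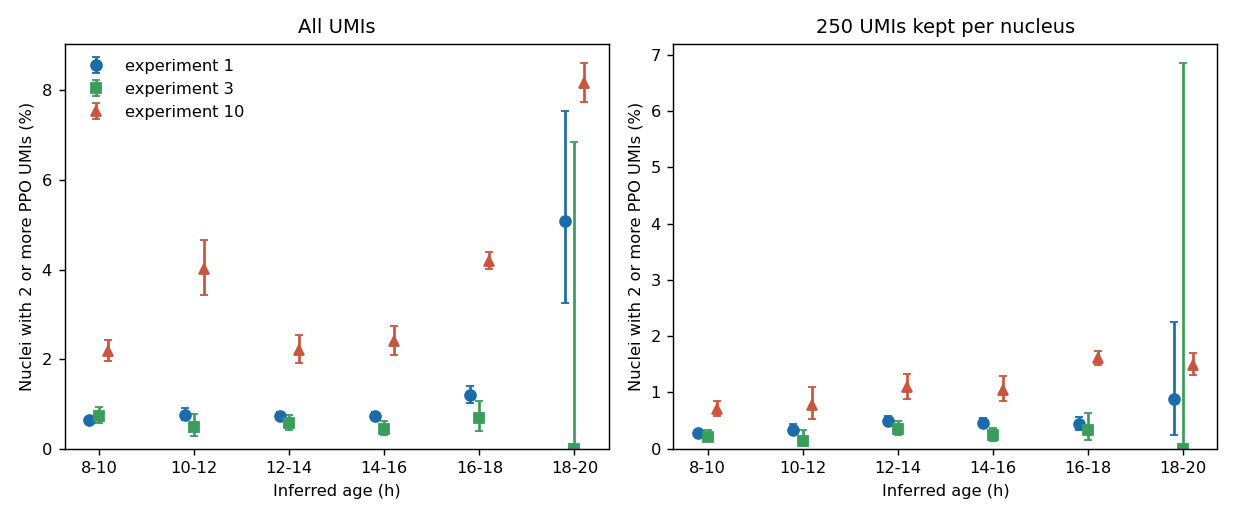
Percent of nuclei with 2 or more PPO UMIs (vertical axis) by 2-h bin of inferred age (horizontal axis) in experiments 1, 3 and 10, with all UMIs (left) and with 250 UMIs kept per nucleus (right). Bars are 95% exact binomial intervals. The value of 8.16% in experiment 10 at 18 to 20 h stands at 1.49% after thinning.

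A count of 2 UMIs was also far more common for genes on the minus strand. PPO1 (chromosome 2R, 17887220 to 17889973, dm6) and PPO2 (2R, 9042261 to 9044709) lie on the minus strand. Among minus-strand genes detected in 1 to 10% of nuclei, a median of 29.9%, 43.8% and 42.7% of the nuclei with the gene had 2 or more UMIs of it in experiments 1, 3 and 10, against 9.41%, 11.1% and 8.29% for plus-strand genes. PPO1 had 37.7%, 51.1% and 43.4% and PPO2 had 36.4%, 47.8% and 40.7%. Both were near the minus-strand median in experiment 10. In experiments 1 and 3 they stood above it but within the 5th to 95th percentiles (24.5 to 42.4% and 37.2 to 55.4%). PPO1 in experiments 1 and 3, PPO2 in experiment 3 and lz in all 3 were detected in under 1% of nuclei. They thus lay outside the range of detection of the genes they are set against. lz, on the plus strand (X, 9284649 to 9303636), had 27.8%, 26.7% and 16.1%, above the plus-strand median in each experiment. UMI levels are therefore not set against each other between genes of different strand, and what sets the strands apart was not tested.

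**Figure D3:**
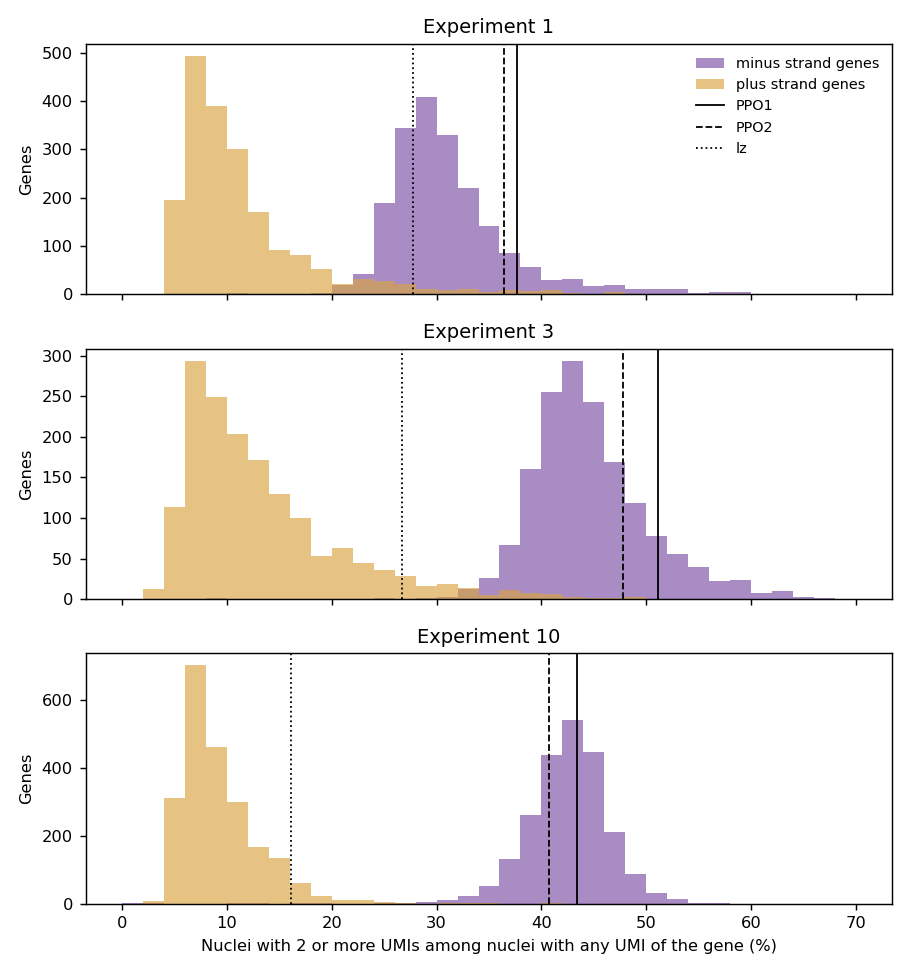
Number of genes (vertical axis) by the percent of nuclei with the gene that had 2 or more UMIs of it (horizontal axis), for genes detected in 1 to 10% of nuclei of 8 to 20 h, by strand and experiment. Lines mark PPO1, PPO2 and lz. Minus-strand genes centre on 29.9% to 43.8% and plus-strand genes on 8.29% to 11.1%.

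The prophenoloxidase genes themselves chose the members and are described without a test. Over all members PPO1 supplied 5969 UMIs (40.2%) and PPO2 8866, with PPO1 at 38.4%, 36.9% and 41.1% in experiments 1, 3 and 10. PPO1 alone was seen in 1660 members, PPO2 alone in 2660 and both in 891 (17.1%), and most of the members with exactly 2 UMIs had both of the same gene. Counts of 10 or more were found in 65 members, and the highest count was 34. PPO3 was seen as 1 UMI in 1 member. In all nuclei of experiment 1, PPO1 stood at 1.04 CPM (UMIs of the gene scaled to a total of 1000000) at 4 to 6 h, 16.1 at 8 to 10 h, 42.7 at 12 to 14 h and 63.2 at 18 to 20 h, and PPO2 at 5.22, 42.4, 60.5 and 128.12 CPM in the same bins. Neither gene climbed at every step in that experiment, with PPO1 at 40.2 and PPO2 at 53.9 CPM at 14 to 16 h. lz stood at 6.57, 7.58, 10.2 and 1.66 CPM in the 4 bins first given, the last value resting on 1 UMI. The PPO1 values at 4 to 6 h and 18 to 20 h in experiment 1 rest on 7 and 38 UMIs. In experiment 3 PPO1 stood at 12.8 CPM at 8 to 10 h, was highest at 12 to 14 h with 25.2 and had 20.4 at 16 to 18 h, while PPO2 stood at 32.3, 36.7 and 24.9 in the same bins. In experiment 10 PPO1 stood at 2.81, 42.6, 92.9, 66.4 and 140.1 CPM at 4 to 6, 8 to 10, 12 to 14, 14 to 16 and 18 to 20 h. PPO2 stood there at 16.4, 103.5, 120.6, 137.7 and 190.2, and lz at 3.38, 4.09, 6.44, 6.36 and 3.24.

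lz, which the rule did not use, was seen in 13.1%, 12.6% and 0.956% of members in experiments 1, 3 and 10, against 0.149%, 0.138% and 0.152% of PPO-free nuclei. Pde1c, which encodes a calcium- and calmodulin-dependent phosphodiesterase of cyclic nucleotides (2L, 11814156 to 11928572, minus strand), was seen in 31.7%, 29.5% and 9.20% of members, against 2.80%, 4.01% and 3.78% of PPO-free nuclei. Either gene was seen in 15.4% of the 5210 members of the 3 experiments (14.4 to 16.4), so that for most members no UMI of either was recorded. At the depth of these nuclei the absence of a UMI does not show the absence of the RNA.

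Both genes were highest in nuclei with many PPO UMIs, and the count at which they departed from PPO-free nuclei differed between experiments. In experiment 1 lz stood at 2092.5, 704.86, 597.25, 123.97, 81.4 and 23.8 CPM in nuclei with 10 or more, 5 to 9, 4, 3, 2 and 1 PPO UMIs, against 4.02 in PPO-free nuclei. Pde1c stood there at 34349, 12235, 11094, 2175, 1028 and 345.19, against 129.31. Even members with exactly 2 PPO UMIs thus exceeded PPO-free nuclei in experiment 1, with lz in 4.57% of them (3.06 to 6.53). In experiment 3 lz stood at 967, 633.53, 86.8, 115.65, 149.64 and 47.2 CPM in the same order of counts, against 3.47 in PPO-free nuclei, the upper classes holding 6, 16 and 18 nuclei. In experiment 10 it stood at 175.8, 34.7, 4.54, 7.23, 4.89 and 6.32, against 3.37. Pde1c in experiment 10 stood at 7560, 726, 178.56, 176.42, 153.53 and 157.86, against 141.13, so that members with 2 to 4 PPO UMIs, the bulk of the members there, were close to PPO-free nuclei in both genes.

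**Figure D4:**
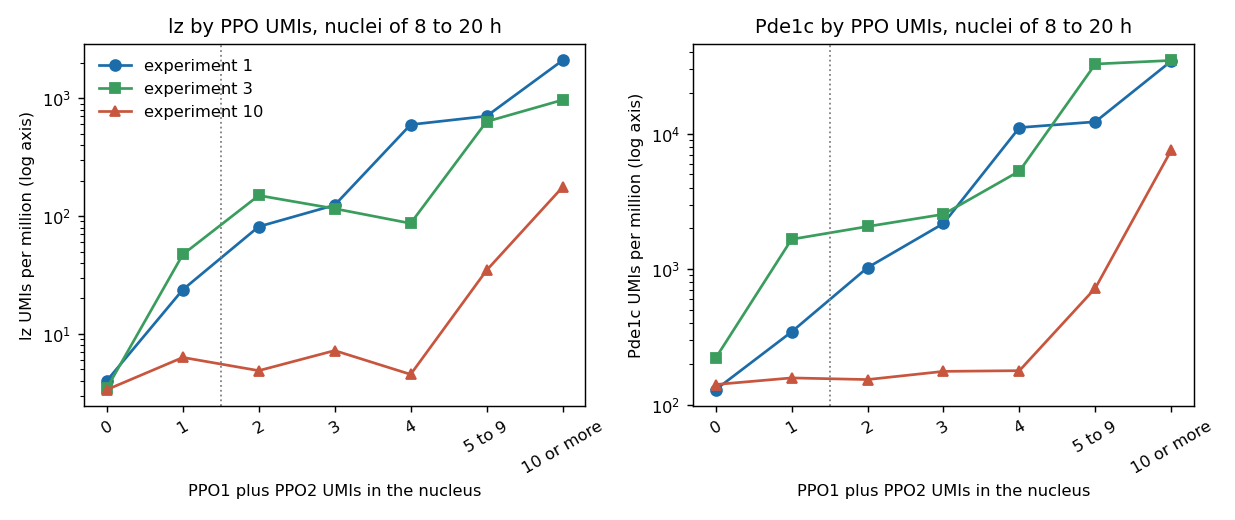
CPM of lz (left) and Pde1c (right) on log axes, in nuclei of 8 to 20 h grouped by their PPO1 plus PPO2 UMIs (horizontal axis), one line per experiment. The dotted line marks the threshold of 2 UMIs. In experiments 1 and 3 both genes are higher from 1 UMI on, and in experiment 10 lz departs from 3.37 to 7.23 only at 5 or more UMIs.

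lz and Pde1c were thus seen in part of the members only. Pde1c was not among the crystal cell markers set beforehand. It rose in the comparison of these same members given below, so its presence does not test the label crystal cell. Of nuclei with both PPO genes and at least 4 PPO UMIs, 90.3% (85.1 to 94.1) in experiment 1, 94.7% (18 of 19) in experiment 3 and 24.03% (18.7 to 30.05) in experiment 10 had lz or Pde1c. The 95% intervals for lz, whether or not Pde1c was seen, were 32.9 to 47.4%, 28.9 to 75.6% and 3.65 to 10.4% in the same order. Of the further markers peb (hindsight) and klu, which encode zinc finger factors, neither passed the test against PPO-free nuclei given below (edgeR log2 fold changes 0.40 ± 0.17 and 0.35 ± 0.16, adjusted p = 0.2222 and 0.2821). Without experiment 10 both were called, peb at 0.60 (adjusted p = 0.01252) and klu at 0.53 (adjusted p = 0.003982). Members are called PPO-positive nuclei in what follows.

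Read from the other side, nuclei with UMIs of both lz and Pde1c met the PPO rule in 72.8% of cases in experiment 1 (65.9 to 78.95), 57.5% in experiment 3 (40.9 to 72.96, 23 of 40) and 48.98% in experiment 10 (34.4 to 63.7, 24 of 49). Nuclei with lz and without Pde1c met it in 5.37%, 2.86% (1 of 35) and 9.09%, against 0.664%, 0.515% and 4.11% of nuclei without lz. In experiment 10 the share with lz and no Pde1c had an interval of 4.93 to 15.04 and overlapped the share of the neuron-marker class. For nuclei with lz, whether or not Pde1c was seen, the intervals were 33.1 to 42.9%, 21.7 to 43.8% and 13.9 to 25.6% in experiments 1, 3 and 10. Pde1c rose in these same members, so the shares with both genes are no separate test of the label.

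UMIs were then summed per experiment over members and over PPO-free nuclei of the same experiment and age bin, the PPO1 and PPO2 rows being removed, and compared by edgeR's quasi-likelihood test with the experiment as a block. Of 9308 genes tested, 2.87% passed a false discovery rate of 0.05 after Benjamini-Hochberg adjustment, 89 of them higher in members (0.956%) and the rest lower (1.91%). Values below are CPM in experiments 1, 3 and 10. Without experiment 10 the share of genes called was 9.40%, without experiment 3 it was 0.921% and without experiment 1 it was 0.0755%. Matching PPO-free nuclei for depth left 0.276%. The median percent of UMIs on ribosomal protein genes was 4.43, 1.59 and 8.80 in members and 2.81, 0.690 and 8.21 in the PPO-free nuclei drawn, and that on mitochondrial genes 0.810, 0.441 and 1.10 in members and 0.654, 0.208 and 1.15 in PPO-free nuclei, and their part in the result was not tested.

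lz, the RUNX factor gene, had the greatest rise of the named genes. It had 251.5, 207.9 and 9.35 CPM in PPO-positive nuclei, against 4.67, 7.69 and 3.39 in PPO-free nuclei, a log2 fold change of 3.89 ± 0.32 (SE, edgeR adjusted p = 2.42e-22, higher in 3 of 3 experiments). Pde1c had 4168, 6424 and 263.5 in PPO-positive nuclei, against 144.4, 194.4 and 148.6 in PPO-free nuclei, a log2 fold change of 3.63 ± 0.26 (adjusted p = 1.503e-28). For each gene the members and PPO-free nuclei lay far apart in experiments 1 and 3 and much closer in experiment 10. The SEs and adjusted p do not show this difference between experiments. Without experiment 10 the log2 fold changes were 5.35 for lz and 4.86 for Pde1c, and without experiment 1 they were 2.83 and 2.81, each past the threshold.

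A group of genes known by their CG numbers rose with them. CG42369 (2L, 6395853 to 6397249, minus strand) had 178.4, 53.2 and 19.6 CPM in members, against 7.55, 0 and 13.2 in PPO-free nuclei (log2 fold change 2.85 ± 0.36, adjusted p = 2.533e-10). CG5418 followed with 2.82 ± 0.43, and in experiment 3 a single UMI stood behind its value in members. CG13743 had 289.4, 135.3 and 49.9 in members against 17.4, 11.8 and 31.2 in PPO-free nuclei (2.52 ± 0.27, adjusted p = 6.501e-14). CG13743 (2R, 9044850 to 9060608) lies 140 bases upstream of PPO2 on the same strand. Transcripts that run past the end of CG13743 would enter PPO2 and could be counted for it, and so toward the rule. Whether this happened was not tested.

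CG17109 (2.13 ± 0.34), CG9119 (1.60 ± 0.25) and CG6733 (1.52 ± 0.33), all on the list of crystal cell genes, were higher in members as well. CG17109 had 110.1, 38.7 and 27.9 CPM in members against 6.35, 3.59 and 24.1 in PPO-free nuclei, and in experiment 10 the difference was small beside that in the other experiments. Without experiment 1 CG6733 had a log2 fold change of 0.16 and CG17109 one of 0.94, neither past the threshold. With PPO-free nuclei matched for depth the adjusted p was 0.0888 for CG17109, 0.0751 for CG9119 and 0.2327 for CG6733, and among nuclei of at least 400 UMIs these 3 genes also missed the threshold (0.1145, 0.1101 and 0.3046). Of all 20 genes named in this comparison, higher and lower, lz, Pde1c and CG13743 (1.67) were the ones still called without experiment 1, with CG42369 at 1.89, CG31324 at 1.06 and CG9119 at 0.97. CG10602 (1.59 ± 0.25), CG31324 (1.49 ± 0.20), CG32335 (1.21 ± 0.33) and CG11318 (1.95 ± 0.50) completed the named rises. In CG11318 5 nuclei held 77.1% of the members' UMIs, and CG31324 had 506.8, 439.9 and 59.6 CPM in members against 102.7, 85.7 and 54.6 in PPO-free nuclei.

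**Figure D5:**
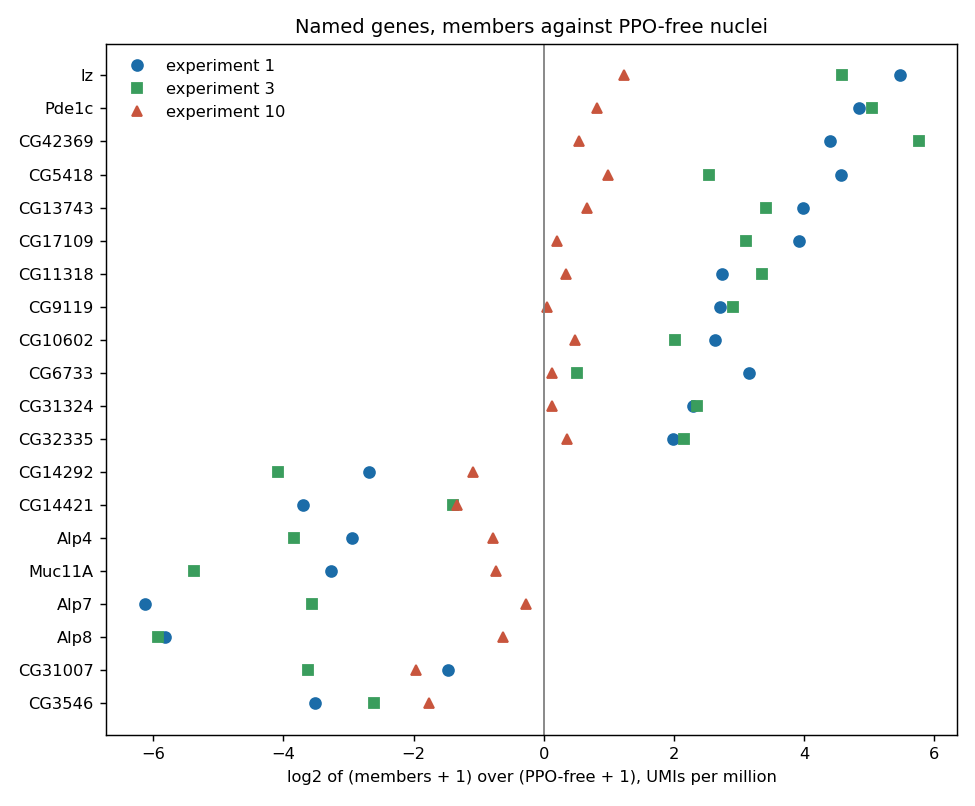
log2 of (members + 1) over (PPO-free + 1) in CPM (horizontal axis) for the named genes of this comparison (rows), one point per experiment. Points of experiment 10 lie nearest to 0 for all 12 higher genes, with lz at 9.35 against 3.39 CPM.

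Elk, a potassium channel gene in which PPO1 lies on the opposite strand (2R, 17873939 to 17926695), had 71.2, 91.8 and 10.1 CPM in members and 14.9, 12.8 and 12.8 in PPO-free nuclei (1.31 ± 0.30, adjusted p = 0.003527). It went the other way in experiment 10. No source used here states whether the counting kept strand, so UMIs of PPO1 and Elk may not be fully separable.

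Among the lists of genes of known role, the 16 crystal cell genes had 15 tested, of which 5 rose (lz, CG17109, CG6733, CG9119 and Men) and none fell, with a median log2 fold change of 0.52 against -0.02 over all genes. The lists were chosen with earlier results of these data known, so the rises describe the members and do not test the label. Without experiment 10, where 9.40% of all genes were called, 8 of 14 rose, with klu, peb and tna added, and without experiment 1 lz was the only one of 15. Men, the cytosolic malic enzyme that makes NADPH, had 360.6, 401.2 and 282.6 CPM in members against 151.3, 246.2 and 259.1 in PPO-free nuclei (0.61 ± 0.18, adjusted p = 0.03474). Of 9 redox and NADPH enzymes tested, Men was the only one called. Ctr1A, the copper importer of the cell surface, rose by 0.89 ± 0.22 (adjusted p = 0.007796), with 212.6, 120.8 and 62.4 in members against 66.9, 49.8 and 59.2 in PPO-free nuclei, and was the only one called among 6 tested copper genes. Prophenoloxidases bind copper, and the copper ATPase gene ATP7 had a log2 fold change of -0.25 and the chaperone gene Atox1 one of 0.56, neither called. Without experiment 10 the log2 fold changes were 0.95 for Men and 1.47 for Ctr1A, both called, and without experiment 1 they were 0.30 and 0.48, neither called.

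None of 7 tested proteases and serpins of the cascade, among them MP1 (-0.31), Hayan (-0.72) and Spn27A (0.07), passed the edgeR test. Of 9 tested tyrosine and melanin genes, 1 was lower: stw, a laccase gene, at 61.7, 38.7 and 103.1 CPM in members against 94.6, 136.4 and 134.8 in PPO-free nuclei (-0.74 ± 0.22, adjusted p = 0.03361). Of 22 Notch pathway genes, in which the ligand Serrate is known to promote crystal cell fate in the larval lymph gland, none was called, and Ser had -0.28 ± 0.18, N -0.13 ± 0.16 and E(spl)mbeta-HLH 0.58 ± 0.24. Of 11 cell cycle genes none was called. Without experiment 10, 2 Notch pathway genes were higher and 3 lower, and the cell cycle gene stg was higher.

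Of 16 blood lineage regulators 1 was lower, the ETS factor gene pnt, with 593.1, 1039 and 328.8 CPM in members against 863.8, 1620 and 395.5 in PPO-free nuclei (-0.56 ± 0.17, adjusted p = 0.03749). The GATA factor gene srp (-0.06 ± 0.18), its partner ush (-0.36 ± 0.17) and gcm (0.64 ± 0.25), which drives plasmatocyte fate, were not called. Of 10 tested plasmatocyte genes 1 rose: crq, a scavenger receptor gene, had 282.8, 246.5 and 65.7 in members against 98.7, 103.6 and 60.7 in PPO-free nuclei (0.86 ± 0.20, adjusted p = 0.00419), at 1.34 without experiment 10 and, no longer called, at 0.53 without experiment 1. Pxn, the peroxidase of the extracellular matrix, had 0.53 ± 0.18 (adjusted p = 0.08689), and was called at 0.84 without experiment 10 (adjusted p = 0.002769). None of 3 tested lamellocyte genes was called, and of 10 basement membrane genes trol, the perlecan gene, was lower (-0.72 ± 0.17).

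Markers of other cell types were present in the members. Summed marker levels are given beside all PPO-free nuclei of 8 to 20 h, which were not matched for age. The log2 fold changes come from the age-matched fits. The summed level of 4 fat body markers was 3984, 8786 and 4685 CPM in members against 14425, 25481 and 5424 in PPO-free nuclei, and most of it came from apolpp, the lipophorin precursor gene. Of the 3 tested, apolpp was the one called and fell by 1.33 ± 0.19 on the log2 scale (adjusted p = 1.542e-08), while Mtp had -0.46 (called at -0.84 without experiment 10) and Lsd-1 0.11. Summed neuron markers stood at 1466, 1976 and 1804 in members against 1329, 2037 and 1691 in PPO-free nuclei, with Syt1 lower (-0.66 ± 0.19). Somatic muscle markers stood at 6198, 7793 and 11877 against 3949, 5813 and 10071, with Act57B higher (0.66 ± 0.17). The midgut markers lab (-0.96 ± 0.22) and Jon65Aiv (-1.10 ± 0.33) were lower, and none of the glia, epidermis, trachea, salivary gland, germ cell or nephrocyte markers was called. Without experiment 10, 1 gene each of the glia, salivary gland, germ cell and nephrocyte lists was lower. Without experiment 1, lz was the only gene of all the lists called, and with PPO-free nuclei matched for depth lz, apolpp and the germ cell marker nos (-1.75) were. The part of RNA from other cells in these results was not tested.

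The named genes with the greatest falls had few UMIs in members. The alkaline phosphatase genes Alp8 (-2.87 ± 0.40), Alp7 (-2.65 ± 0.48) and Alp4 (-2.14 ± 0.52) were lower, Alp7 with 0, 0 and 2.20 CPM in members against 68.9, 10.8 and 2.87 in PPO-free nuclei. The mucin gene Muc11A had 2.85, 0 and 2.57 against 36.1, 40.5 and 4.91 (-2.19 ± 0.41). CG3546 (-3.31), CG31007 (-3.29), CG14421 (-2.10) and CG14292 (-2.01) were the others, each with 3 to 25 UMIs in members.

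The PPO-positive nuclei with at least 5 PPO UMIs, an extra choice made after seeing the data, were 22 in experiment 3 and many more in each of experiments 1 and 10. Those with 5 to 9 PPO UMIs had a median of 0.4455 kUMI in experiment 1 and 1.681 kUMI in experiment 10. This narrower choice gave larger log2 fold changes of lz and Pde1c against PPO-free nuclei of the same experiment and age bin. These PPO-free nuclei were not matched for depth. All PPO-free nuclei of experiment 10 had a median of 0.371 kUMI. The part of depth in the larger changes was not tested. Of 4800 genes tested, 34 rose (0.708%) and 5 fell. lz had 940.2, 746.8 and 43.5 CPM in these members against 2.74, 0 and 2.77 in PPO-free nuclei (log2 fold change 6.72 ± 0.53, edgeR adjusted p = 7.498e-33), and Pde1c 16000, 33570 and 1151 against 130.5, 299.1 and 127.5 (5.67 ± 0.38).

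On this narrower choice 8 of 14 tested crystal cell genes rose, klu (1.14 ± 0.29), tna (1.03 ± 0.29) and CG10467 (3.04 ± 0.79) joining lz, CG17109 (3.58), CG9119 (3.25), CG6733 (2.72) and Men (1.75). Ctr1A rose by 2.24 ± 0.40, with 758.6, 628.9 and 72.5 CPM in these members against 77.9, 42.7 and 65.5 in PPO-free nuclei. Of 8 tested plasmatocyte genes crq (2.36 ± 0.36) and Pxn (1.74 ± 0.33) rose, crq with 862.4, 943.3 and 106.9 against 100.3, 80.7 and 60.65. CG31324 (3.21), mamo, a zinc finger factor gene (3.03), CG10602 (2.80) and mthl10, a G-protein-coupled receptor gene (2.55), rose too. dhd, Sh, bt and apolpp were the named genes that fell, the last by 1.15 ± 0.30 on the log2 scale.

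With UMIs of both PPO genes required, also chosen after seeing the data, 27 nuclei remained in experiment 3 and more in the others, and 21 of 6525 genes rose (0.322%) and 9 fell. lz (5.72 ± 0.47), Pde1c (5.43 ± 0.41), CG42369 (3.87), CG13743 (3.78) and CG5418 (3.70) had the greatest rises, and Elk rose by 2.35 ± 0.41. The rises in experiment 10 stayed smaller, with lz at 19.4 CPM in these members against 3.12 in PPO-free nuclei, beside 651.7 against 1.17 in experiment 1. Here too the PPO-free nuclei were not matched for depth, and these members had a median of 1.766 kUMI in experiment 10.

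Set against plasmatocyte-marker nuclei of the same experiment and age bin, which had at least 3 UMIs over Pxn, Hml, NimC1, crq, Ppn and Sr-CI and no PPO UMI, the members stood apart in 36 of 7803 genes (0.461%), 2 higher and 34 lower (0.436%). lz had 251.9, 208.1 and 9.36 CPM in members against 2.44, 7.29 and 2.96 in plasmatocyte-marker nuclei (4.19 ± 0.61, edgeR adjusted p = 0.01527), and Pde1c 4174, 6431 and 263.8 against 97.2, 182.3 and 138.9 (3.82 ± 0.69, adjusted p = 0.03938). They were the only genes called higher. Without experiment 3 edgeR called no gene here (4.72% at an unadjusted p under 0.05), without experiment 1 it called 0.191% and lz had an adjusted p of 0.0585, and without experiment 10 it called 3.28%, with 6 of 12 crystal cell genes higher.

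Lower in members were genes of the basement membrane, the sheet of matrix that plasmatocytes deposit, with 5 of 10 called. Col4a1 and vkg, the type IV collagen chains, had 524.6, 237.1 and 696.4, and 337.4, 174.2 and 449.8 CPM in members, against 7134, 1389 and 1506, and 4328, 1001 and 1020 in plasmatocyte-marker nuclei (-2.55 ± 0.39 and -2.52 ± 0.37). SPARC (-1.79 ± 0.34), Plod (-1.63 ± 0.31) and trol (-0.86 ± 0.17) were also lower. Of the 10, 9 were lower without experiment 10 and 3 (Col4a1, vkg and Plod) without experiment 1. Pvr, the PDGF- and VEGF-related receptor gene of plasmatocytes, fell by 1.75 ± 0.26 on the log2 scale, its ligand gene Pvf2 by 1.30 ± 0.25 and pnt by 1.09 ± 0.16. NimC4, an engulfment receptor gene, fell by 2.16 ± 0.38, and Jon25Bii (-3.16), NtR (-2.82), CG31051 (-2.59), Ance-5 (-2.46), CG1092 (-2.36) and hoe1 (-2.28) were the other named falls. Against PPO-free nuclei of all kinds Col4a1 had -0.34 ± 0.17 and vkg -0.34 ± 0.18, neither called. The genes used to choose either set of nuclei were removed before this fit. The plasmatocyte-marker nuclei were still chosen by plasmatocyte genes, among them the matrix genes Pxn and Ppn. Other genes seen together with these can be high in that set by the choice, so the falls describe the reference as well as the members.

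Within the members, lz and Pde1c varied with age. In experiment 1 lz stood at 252.9 CPM at 8 to 10 h, 523.03 at 12 to 14 h, 463.7 at 14 to 16 h, 56.5 at 16 to 18 h and 0 at 18 to 20 h, and Pde1c over the bins from 8 to 20 h at 2276, 3302, 10127, 8956, 1591 and 728.5. In experiment 3, which had no members after 18 h, lz stood at 111.02, 277.9, 441.3, 230.5 and 0 and Pde1c at 1686, 5311, 16456, 12332 and 3054. In experiment 10 lz stood at 27.04, 9.32, 42.3, 28.9, 8.02 and 3.75, and Pde1c at 216.3, 142.2, 1667, 605.9, 325.8 and 139.8. Both genes were highest at 12 to 14 h in all 3 experiments. The lz values of 0 rest on 23 members in experiment 1 and 18 in experiment 3, and do not show that lz was absent. The median depth of members was lowest in the bins of 12 to 16 h, at 0.366 to 0.3695 kUMI in experiment 1 against 0.5275 to 1.897 kUMI in the other bins there.

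A linear trend with age in the members, over 17 sums of an experiment and a bin, called 17.1% of 3718 genes rising and 18.9% falling. Without experiment 10 it called 13.2% of genes in all, and without experiment 1 it called 19.6%. The named rises were CG31626 (0.83 ± 0.07 log2 per h), Vajk4 (0.79 ± 0.06), TwdlM (0.78 ± 0.07), CG15740 (0.75 ± 0.07), TwdlY (0.75 ± 0.08) and Ccp84Ac (0.73 ± 0.08). The steepest falls were link (-0.38 ± 0.04), lmd, a muscle fate factor gene (-0.35 ± 0.05), sca (-0.33 ± 0.05), dhd (-0.30 ± 0.07), lncRNA:CR44833 (-0.29 ± 0.05) and scra, the anillin gene (-0.29 ± 0.04). In the lists 9 of 10 tested cell cycle genes fell, as did 9 of 15 Notch pathway genes and 8 of 14 blood lineage regulators, while all 6 muscle markers, 4 of 5 neuron markers, 6 of 10 basement membrane genes and all 3 tyrosine and melanin genes tested rose. Of 12 crystal cell genes fok rose and peb and Ser fell. Without experiment 10, 3 of 8 cell cycle genes, 3 of 12 Notch pathway genes and 3 of 13 blood lineage regulators fell, and all 6 muscle markers, 3 of 5 neuron markers and 5 of 10 basement membrane genes rose. Without experiment 1, 7 of 8 cell cycle genes fell and the same 6 muscle markers rose.

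The slopes in members were tested against those in PPO-free nuclei of the same bins. The difference of the 2 slopes passed the test for 4 of 7552 genes (0.053%), and a difference that missed the threshold does not show equal slopes. For Pde1c the slope in members minus that in PPO-free nuclei was -0.41 ± 0.08 log2 per h (edgeR adjusted p = 0.02011), and in PPO-free nuclei of experiment 1 it stood at 39.7 CPM at 8 to 10 h and 292.2 at 16 to 18 h. The 3 other genes were CG13003 (-0.35 ± 0.06), the cuticle gene Cpr56F (-0.45 ± 0.09) and zpg, a germ line gap junction gene (0.33 ± 0.07). None of the lists had a gene called.

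PPO-positive nuclei in which only PPO1 was seen were also set against those in which only PPO2 was seen. These groups were not matched for age or depth. Median ages were 13.5, 12.6 and 17.7 h in PPO1-only nuclei and 12.3, 10.3 and 17.6 h in PPO2-only nuclei of experiments 1, 3 and 10. Median depths were 0.3915, 0.4325 and 0.598 kUMI against 0.437, 0.675 and 0.6185 kUMI. Of 5083 genes 1 passed (0.0197%), CG11370, with 41.4, 0 and 6.51 CPM in PPO1-only nuclei against 50.1, 7.23 and 262.6 in PPO2-only nuclei (-3.89 ± 0.58, edgeR adjusted p = 0.001218). In it 5 nuclei held 94.6% of the members' UMIs, and nearly all UMIs of the PPO2-only nuclei came from experiment 10. Without experiment 10, and without experiment 1, it fell under the filter on low counts and was not tested. lz had 66.25, 185.1 and 7.165 CPM in PPO1-only nuclei against 131.7, 93.98 and 5.142 in PPO2-only nuclei, and was not called. An unadjusted p under 0.05 was reached by 95 genes, and DESeq2 called 0 (34 at an unadjusted p under 0.05).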

How the data were processed

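The UMI count matrix deposited by the authors holds whole numbers per gene and nucleus, not normalized. Per the submitters' processing notes STAR 2.7.3a and dm6 with BDGP6 were used, and per the methods the authors had excluded nuclei of under 250 UMIs and removed doublets, so no doublet caller was run. The deposited cell table gives experiment, window, inferred age and the percent of UMIs on ribosomal and mitochondrial genes, as the authors computed them. Inferred age, from the authors' neural network, is a score in hours. The matrix held 23932 genes and 347601285 UMIs in 547805 nuclei, with a median of 399 UMIs per nucleus. Positions come from the Ensembl annotation of BDGP6, release 115.

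The members and gene lists were chosen with earlier results of these data known. UMI counts were summed per experiment. PPO-free nuclei were drawn at random from the same experiment and age bin, 16, 20 and 10 per member in experiments 1, 3 and 10, since 20 per member, as planned, were not to be had in all bins of experiments 1 and 10. Plasmatocyte-marker nuclei were drawn at up to 3 per member and bin, and in experiment 10 only 5212 were found for 3871 members, so that the number per member differed between bins. Tests used edgeR 4.0.16 in R 4.3.3 (filterByExpr, TMM factors, quasi-likelihood fits, Benjamini-Hochberg adjustment, threshold 0.05), with the experiment as a block because both sums come from the same libraries. DESeq2 1.42.0 was the other tool. The scripts were tested on simulated data. Named genes had adjusted p under 0.05, at least 20 UMIs in the higher group and 1 direction in all experiments, and were the 12 with the largest rises and the 8 with the largest falls (6 and 6 for age trends), with genes of 21 lists beside them. Elk was named after its values were seen, and Pde1c was not among the crystal cell markers set beforehand. Shares were thinned to 250 UMIs per nucleus and have exact Clopper-Pearson intervals of 95%, and a share of 0 allows 3 counts of the total. Promoter motifs were not analysed here. Python 3.11.15, SciPy 1.17.1 and matplotlib 3.10.9 were used for the rest.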

Additional observations from a re-analysis of the deposited data

Results flagged for a closer look

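The age slope in members differed from that in PPO-free nuclei for 4 genes by the test of the difference itself (edgeR, all 3 experiments). Slopes in members minus slopes in PPO-free nuclei were -0.348 log2 per h for CG13003 (adjusted p = 0.01423), -0.412 for Pde1c (adjusted p = 0.02011), -0.446 for the cuticle gene Cpr56F (adjusted p = 0.04163) and 0.328 for zpg (adjusted p = 0.04431). Over the other settings in which each was tested, between 3 and 5 a gene, the adjusted p ran between 0.002751 and 0.2335 for CG13003, 0.01014 and 0.4412 for Pde1c, 0.0006784 and 0.809 for Cpr56F, and 0.05084 and 0.2142 for zpg. UMIs of zpg were seen in 59 members.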

How the results depend on the processing

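No named gene, and no called gene of a list, changed direction in the settings that gave it an adjusted p. Between members and PPO-free nuclei 2.87% of genes tested were called, against 1.03% with DESeq2, 0.924% with library sizes alone, 2.16% without the filter on low counts, 0.679% with at least 3 PPO UMIs, 0.276% with PPO-free nuclei matched for depth, 0.218% among nuclei of at least 400 UMIs, 19.3% with pairs of experiment and bin, and, both chosen after seeing the data, 0.812% with at least 5 PPO UMIs and 0.460% with UMIs of both genes. Leaving out 1 experiment gave 0.0755% (without experiment 1) to 9.40% (without 10). Higher genes made up 33.3% of the calls, against 16.7% with DESeq2, 45.3% with library sizes alone and 13.9% with pairs of experiment and bin. The median log2 fold change of all genes was -0.253 with the filter off and -0.113 with pairs of experiment and bin. Without the replicate block (the experiment) edgeR called 0 here (1.84% at an unadjusted p under 0.05), 0 against plasmatocyte-marker nuclei (1.83%), 0 for PPO1-only against PPO2-only nuclei (0.236%) and 23.6% for the age trend. lz was called in 10 of the 11 other settings that gave it an adjusted p and Pde1c in 12 of 13, the exception being the fit without the block. DESeq2 and the pairs of experiment and bin gave lz no adjusted p. Of the 12 higher named genes, DESeq2 gave one to Pde1c (0.03309) and CG31324 (0.01131) only. Against plasmatocyte-marker nuclei 0.461% became 0.756% with DESeq2, 0.295% with library sizes alone, 1.59% without the filter, 0.0127% with at least 2 plasmatocyte UMIs and 0 to 3.28% with 1 experiment left out. The age trend, with 17.1% rising and 18.9% falling, called 13.2% to 30.1% with 1 left out and 12.6% of a larger number of genes without the filter. Its difference called 0.053%, against 0.0132% with library sizes alone and 0 to 0.0454% with 1 left out (edgeR, 3.81% and 3.94% at an unadjusted p under 0.05 without experiments 1 and 3). PPO1-only against PPO2-only gave 0 with DESeq2 (0.669% unadjusted) and 0 to 0.0964% with 1 left out. The share of 1.87% of nuclei was 0.685% after thinning, 0.764% with at least 3 UMIs, 4.32% with at least 1, 0.321% with both genes (chosen after seeing the data), and 0.727% (without experiment 10) to 3.19% (without 1) with 1 left out. The cause of these changes was not tested. At a median of 0.357 kUMI, a gene with no UMI in a nucleus is not shown to be absent.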
